A study of Mus musculus with 23 samples.

Results

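The Kruppel-like factors (KLFs) examined here are 10 transcription factor genes, Klf11, Klf10, Klf9, Klf13, Klf15, Klf2, Klf4, Klf5, Klf6 and Klf3, out of 28388 genes measured above background in mouse circumvallate papilla. The genes were chosen by name as family members detected in these arrays, with earlier results of these data known. They are not every detected member. A further 6 members were also measured above background and are given separately, so counts out of 10 leave them out. Where a gene had several probes, the one with the highest mean level over the 23 arrays represented it. Klf11 was placed first on its measured log2 difference between energy restricted and freely fed mice of the obesogenic diet, so its values in that contrast are described and not tested. Each of the 10 leading probes was well above background on 23 of 23 arrays, and no array showed a saturated spot.

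The circumvallate papilla is a large taste papilla of the tongue, and it was freed with elastase and dispase before dissection. The DIO-R group (n = 8) is read as mice on an obesogenic diet rich in saturated fat that were restricted to 60% of freely eaten energy, a reading that the labels do not spell out. The DIO group (n = 8) ate that diet freely, and the Lean group (n = 7) freely ate a chow with 3% fat by weight. All groups were male C57Bl6/j mice with no transgene, and the labels give neither age, length of the diets nor hour of sampling. Because nothing says that each sample is a separate animal, p-values here measure the spread between samples, which may in part be technical. Every level below is a log2 intensity relative to the 75th percentile of its own array, so a level of 0 means as bright as that percentile. Levels of different genes come from different probes and are not ranked against each other.

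KLFs bind GC-rich and CACCC sequences through 3 zinc fingers near the carboxyl end, and they differ mainly in the cofactors that their other parts recruit. Klf9, Klf10, Klf11 and Klf13 bind the corepressor Sin3a, Klf3 binds the corepressor CtBP, and Klf2, Klf4, Klf5, Klf6 and Klf15 are known mostly as activators, although several also repress. In stratified epithelium Klf5 marks the dividing basal layer and Klf4 drives formation of the barrier, whereas Klf2 is best known from endothelium and immune cells and Klf15 from muscle, liver and fat.

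The defining markers of the labelled tissue were present. All 6 type II taste cell markers, including Gnat3, Trpm5 and Tas1r2, and all 16 keratinocyte markers of the basal and differentiated lists were kept on 23 of 23 arrays. Type II scores (the mean of the markers' standardised levels) were lowest in DIO 1, at -2.36, and DIO 6, at -1.45, and the KLF values were therefore also computed without these samples. Markers of muscle, fat, vessels, gland and blood were detected as well. In such bulk tissue, fewer cells of a type and less RNA per cell cannot be told apart.

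Klf11 was lower in energy restricted mice than in either freely fed group. Klf11 encodes a repressor first described as inducible by TGF-beta that also controls metabolic genes, and its probe lies on chromosome 12 (chr12:25347324-25347383, mm9). In DIO-R samples its lowest, median and highest levels were -2.87, -2.54 and -2.32. In DIO samples they were -2.33, -1.97 and -1.73, and in Lean samples they were -2.31, -2.04 and -1.81. Among the DIO-R samples 7 of 8 lay below every DIO sample, and the one exception, DIO-R 10, lay just above DIO 1, the lowest DIO sample. All 8 DIO-R samples lay below all 7 Lean samples, a separation that 0.303% of genes showed in that comparison.

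The mean Klf11 level was -2.57 ± 0.17 in DIO-R and -1.96 ± 0.20 in DIO (SD, n = 8 each), a log2 difference of -0.61 ± 0.09 (SE), or 1.53-fold lower in DIO-R. This difference is a description, since the gene was put first for it. Within the 3 array slides, each of which held every group, the difference was -0.40, -0.57 and -0.90, so it had the same direction on each and its size varied. Against Lean, whose mean was -2.01 ± 0.17 (SD, n = 7), Klf11 fell by 0.56 ± 0.10 on the log2 scale in DIO-R (1.47-fold, 8 of 8 samples below the Lean mean, limma adjusted p = 0.0104). That test uses the same DIO-R samples as the first and is not independent of it. The slides gave -0.52, -0.46 and -0.65. Quantile normalization and the authors' deposited value table each ended this call, with adjusted p of 0.0834 and 0.0588.

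Between the freely fed groups no Klf11 difference was detected. Klf11 in DIO differed from Lean by 0.05 ± 0.10 (SE) on the log2 scale, with a 95% interval of -0.15 to 0.25 and an adjusted p of 0.923. The slides gave -0.12, 0.11 and 0.25, on both sides of 0. With normexp background correction the Klf11 differences were smaller, -0.39 for DIO-R against DIO and -0.34 for DIO-R against Lean.

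**Figure D1:**
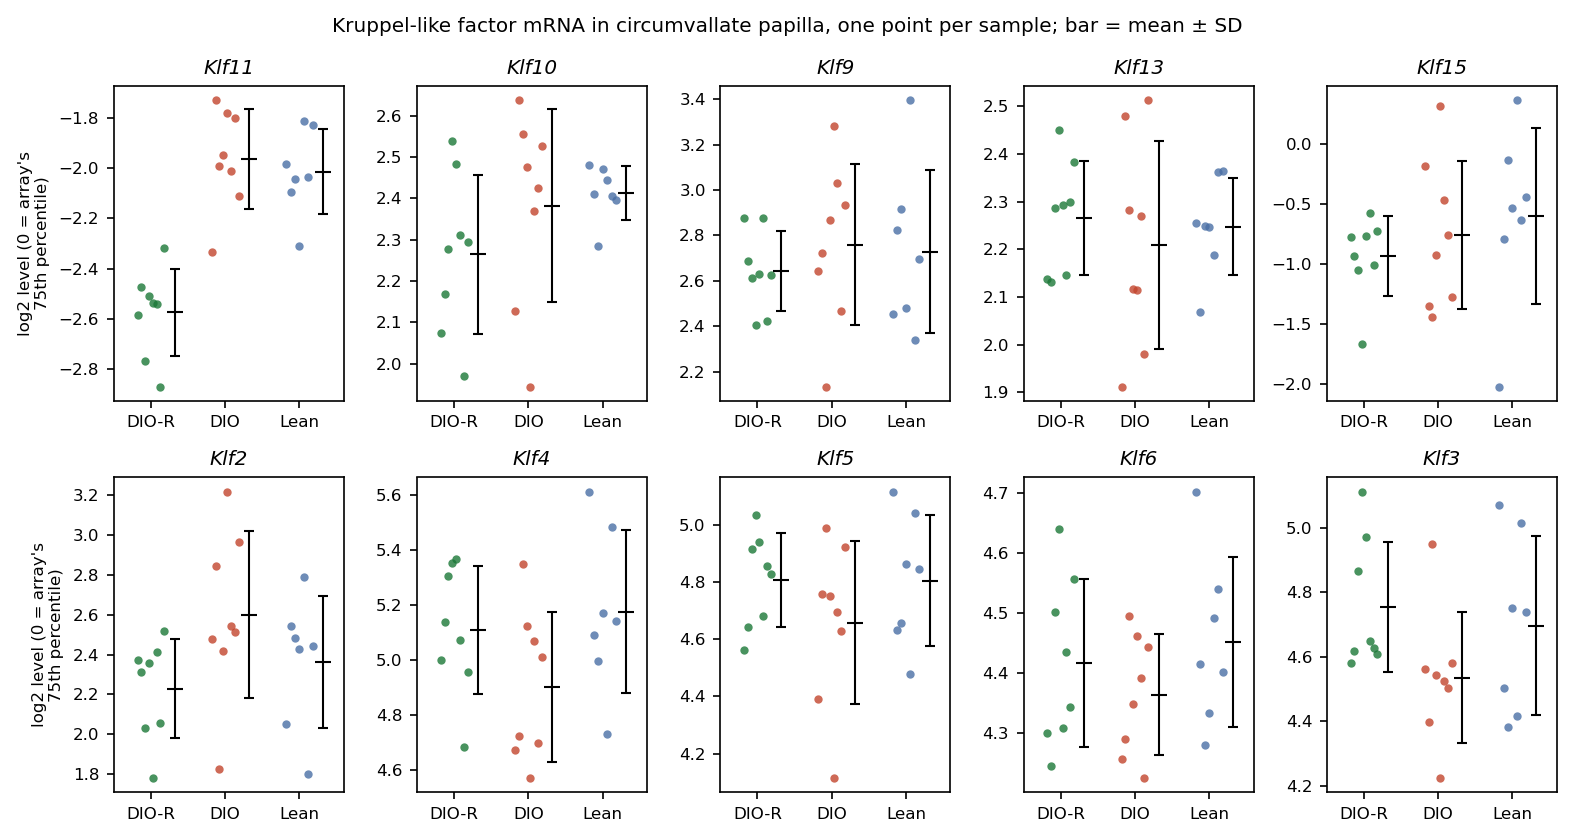
Level of each KLF in each sample (log2 intensity relative to the array's 75th percentile, a separate vertical axis for each gene), with DIO-R, DIO and Lean from left to right and a bar for the mean ± SD. For Klf11 the DIO-R samples sit between -2.87 and -2.32, the DIO samples between -2.33 and -1.73 and the Lean samples between -2.31 and -1.81. DIO-R and Lean do not overlap for Klf11, while DIO overlaps both. All groups overlap for the other 9 genes.

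Marker lists of other cell types also differed in level between the groups. The erythrocyte markers kept were 5 genes, the haemoglobin genes Hba-a1, Hbb-b2 and Hbb-bt with Alas2 and Slc4a1. All 5 were lower in DIO-R than in DIO, with a median log2 difference of -1.12, and all 5 were higher in DIO than in Lean, with a median of 1.20. None passed the test. The summed erythrocyte level ranged over 4.17 to 6.28 in DIO-R, 5.27 to 7.36 in DIO and 3.63 to 5.86 in Lean. With the erythrocyte score as a covariate Klf11 differed by -0.57 ± 0.12 (SE) between DIO-R and DIO, and by -0.56 ± 0.10 (SE) between DIO-R and Lean with an adjusted p of 0.0126. The erythrocyte median was 0.08 in DIO-R against Lean. With the covariate, Klf11 no longer met the threshold in DIO-R against DIO, a contrast that is only described here.

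Adipocyte markers were lower in DIO-R too, 7 of 7 against DIO (median -0.82) and 7 of 7 against Lean (median -0.72). Their summed level ranged over 1.73 to 4.16 in DIO-R, 3.65 to 4.84 in DIO and 2.96 to 5.22 in Lean. Skeletal muscle markers were lower in 9 of 9 genes against DIO (median -0.61) and 8 of 9 against Lean (median -0.64), with summed levels of 7.63 to 10.14 in DIO-R, 9.15 to 10.46 in DIO and 8.64 to 10.70 in Lean. No gene of either list passed the test. Once each group's mean had been subtracted, Klf11 correlated at -0.16 with the adipocyte score, -0.16 with the skeletal muscle score and 0.13 with the erythrocyte score over the 23 arrays. The part of these cell types in the Klf11 result was not tested further.

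The stretch before the start of Klf11 is shown because Klf11 was placed first among the genes examined, with the motifs that KLFs and other regulators bind in capitals. RefSeq promoter windows of GRCm38.p6, 250 bases before to 50 after the start, were found for 8 of the 10 genes (not for Klf10 and Klf5), and 5 motifs were searched on both strands. The 250 bases before the start, on the plus strand of chr12:24651121-24651370, read as follows.
Klf11: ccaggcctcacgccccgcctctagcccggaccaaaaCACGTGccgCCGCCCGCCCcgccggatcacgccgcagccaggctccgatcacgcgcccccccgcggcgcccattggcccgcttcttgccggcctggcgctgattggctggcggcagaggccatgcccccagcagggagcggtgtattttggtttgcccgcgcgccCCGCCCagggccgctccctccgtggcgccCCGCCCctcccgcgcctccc

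The capitals mark 4 GC boxes (GGGCGG or its complement, the first pair overlapping) and 1 E-box (CACGTG, the palindrome that clock and other basic helix-loop-helix factors bind). GC boxes stood in the windows of 7 of the 8 genes, against 35.66% of 32851 mouse windows, and E-boxes in 4 of 8, those of Klf11, Klf15, Klf4 and Klf6, against 7.15%. The CACCC box was in 5 of 8 windows, against 57.52% of all. The cAMP response element core TGACGT was in the windows of Klf9 and Klf13, against 7.513% of all, and the nuclear receptor motif AGGTCA was in 0 of 8, against 16.26%. The 8 windows held 63.00% to 77.67% G and C, and a match describes letters only. The 32851 mouse windows were not chosen for a like content, so these shares cannot show an enrichment.

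Across the family, Klf11 was the member that passed the test against Lean. In DIO-R against Lean, 1 of 10 KLFs passed, against 0.127% of all genes, and 1 of 10 had an unadjusted p under 0.05, against 8.95% of all genes. That member is Klf11, put first on a contrast that uses the same DIO-R samples, so nothing about the family is read from these counts. In DIO-R against Lean 7 of 10 were lower with a median log2 difference of -0.08. All genes had a median of -0.02 there. In DIO-R against DIO, 0 of the 9 other members passed by limma and 5 of 10 were lower and 5 higher; Klf11 met the threshold that 0.0599% of all genes met, but it was put first on this contrast and nothing is read from that. Group ranges did not overlap for 1 of 10 members in DIO-R against Lean, for 0 of 10 in DIO-R against DIO, where they did not for 0.0881% of genes, and for 0 of 10 in DIO against Lean, where they did not for 0.12%. In DIO against Lean, 0 of 10 passed by limma, where 0.00352% of all genes did, and 0 of 10 had an unadjusted p under 0.05, against 8.94% of all genes. There 7 members were lower and 3 higher with a median of -0.06, and the Klf10 difference of -0.03 turned to 0.0055 under quantile normalization. Without DIO 1 and DIO 6 the counts were 0 for DIO against Lean and 1 for DIO-R against Lean, and 0 of the 9 members other than Klf11 passed in DIO-R against DIO.

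**Figure D2:**
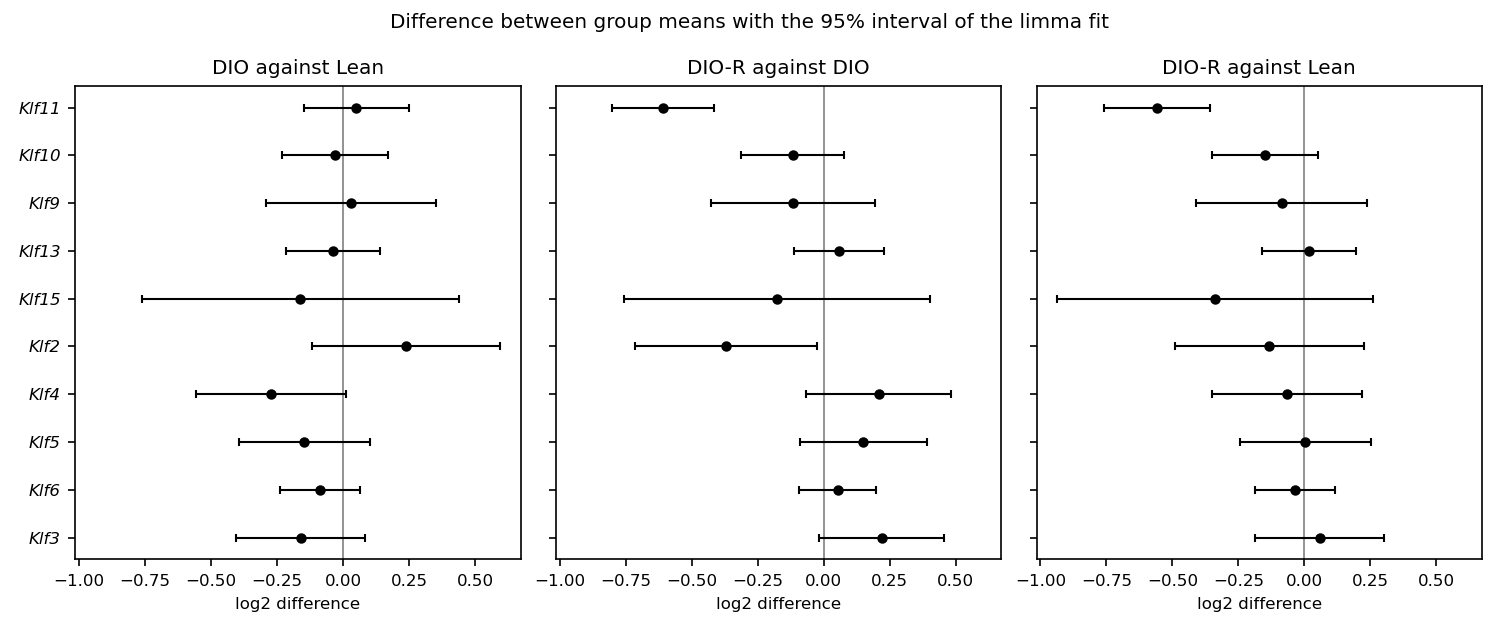
Difference between group means for each KLF (log2 scale, points) with the 95% interval of the fit (bars), for DIO against Lean, DIO-R against DIO and DIO-R against Lean. The Klf11 interval reaches from -0.80 to -0.42 in DIO-R against DIO and from -0.76 to -0.36 in DIO-R against Lean, and it includes 0 in DIO against Lean.

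Klf10, the closest relative of Klf11 and likewise a TGF-beta inducible repressor, did not pass in any comparison. Its probe lies on chromosome 15 (chr15:38224255-38224314, mm9). Lowest, median and highest levels were 1.97, 2.29 and 2.54 in DIO-R, 1.94, 2.45 and 2.64 in DIO, and 2.29, 2.41 and 2.48 in Lean. The groups overlapped, with SDs of 0.19 in DIO-R, 0.23 in DIO and 0.07 in Lean. The log2 difference was -0.12 in DIO-R against DIO, with an interval of -0.31 to 0.08. It was -0.15 in DIO-R against Lean, with an interval of -0.35 to 0.05, and -0.03 in DIO against Lean, with an interval of -0.23 to 0.17. The Klf11 difference from Lean in DIO-R lies outside the Klf10 interval for the same groups, and the difference between the 2 genes was not tested.

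Klf9, which glucocorticoid and thyroid hormone induce in many tissues, and Klf13, a regulator of chemokine genes in T cells, also belong to the Sin3a-binding branch. Klf9 (chr19:23240410-23240469, mm9) had lowest, median and highest levels of 2.40, 2.63 and 2.88 in DIO-R, 2.13, 2.79 and 3.28 in DIO, and 2.34, 2.70 and 3.39 in Lean. Its differences were -0.12 for DIO-R against DIO (interval -0.43 to 0.20), -0.09 for DIO-R against Lean (interval -0.41 to 0.24) and 0.03 for DIO against Lean (interval -0.29 to 0.35). The spread was wider in the freely fed groups, with an SD of 0.18 in DIO-R against 0.35 in DIO and 0.36 in Lean, and no test compared these spreads. Klf13 had lowest, median and highest levels of 2.13, 2.29 and 2.45 in DIO-R, 1.91, 2.19 and 2.51 in DIO, and 2.07, 2.25 and 2.37 in Lean. Its differences were the smallest in range, 0.06 for DIO-R against DIO (interval -0.11 to 0.23), 0.02 for DIO-R against Lean (interval -0.16 to 0.20) and -0.04 for DIO against Lean (interval -0.22 to 0.14). Klf13 was the one member with several probes, and both other probes, well above background on 23 arrays, gave -0.09 and 0.01 for DIO-R against DIO and -0.25 and -0.05 for DIO-R against Lean.

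The leading probes of Klf13 and Klf5 are shown because both lie in the zinc finger coding sequence that the family shares, and they are the most alike of all pairs of leading probes. Klf13 is at chr7:71082854-71082913 and Klf5 at chr14:99702656-99712388 (mm9, where the 60 bases of the probe span 9733 bases). Capitals mark bases identical in the best ungapped overlap, 29 of 40 positions (72.5%), with a longest shared run of 8 bases.
Klf13: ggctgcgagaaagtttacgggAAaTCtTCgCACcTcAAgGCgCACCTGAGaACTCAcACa
Klf5: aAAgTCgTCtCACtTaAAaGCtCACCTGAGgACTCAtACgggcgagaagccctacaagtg
Each holds an open frame with the spacing of a zinc finger histidine pair. No other pair of leading probes overlapped at more than 56.25% identity.

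Klf15, an activator of amino acid breakdown and glucose production in muscle and liver that glucocorticoid induces, varied most between samples. Its probe lies on chromosome 6 (chr6:90425144-90425203, mm9). Lowest, median and highest levels were -1.67, -0.85 and -0.57 in DIO-R, -1.45, -0.84 and 0.32 in DIO, and -2.03, -0.53 and 0.37 in Lean. All 3 groups overlapped, and Lean alone spanned more than the distance between any group means. The differences were -0.18 for DIO-R against DIO (interval -0.76 to 0.40), -0.34 for DIO-R against Lean (interval -0.94 to 0.26) and -0.16 for DIO against Lean (interval -0.76 to 0.44). These intervals include a change as large as that of Klf11.

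The window of Klf15 held 3 E-boxes, more than any other member's, and its 250 bases before the start are shown for that reason (plus strand of chr6:90462326-90462575, GRCm38.p6). Capitals mark the E-boxes, a CACCC box read on the other strand as GGGTG and a GC box. The third E-box straddles the end of the printed stretch and so is in lower case and cut short.
Klf15: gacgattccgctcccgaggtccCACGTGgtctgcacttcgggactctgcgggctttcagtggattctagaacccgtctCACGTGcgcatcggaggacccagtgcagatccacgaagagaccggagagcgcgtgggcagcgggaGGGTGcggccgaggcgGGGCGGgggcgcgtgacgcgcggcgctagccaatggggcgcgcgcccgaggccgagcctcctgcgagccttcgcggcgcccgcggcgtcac

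Klf2, the flow-responsive factor of endothelium that also restrains immune cells, was lower in DIO-R than in DIO without passing the test. Its probe lies on chromosome 8 (chr8:74845137-74845196, mm9). Lowest, median and highest levels were 1.78, 2.34 and 2.52 in DIO-R, 1.83, 2.53 and 3.22 in DIO, and 1.80, 2.44 and 2.79 in Lean. All 8 DIO-R samples lay below the DIO mean, yet the ranges overlapped. The difference was -0.37 ± 0.17 (SE, n = 8 each, interval -0.72 to -0.03, unadjusted p = 0.036, limma adjusted p = 0.501), where 9.72% of all genes had an unadjusted p under 0.05. The slides gave -0.43, -0.37 and -0.40. Leaving out DIO 6, the highest DIO sample, moved it to -0.28, and leaving out DIO 3, the lowest, moved it to -0.48. Klf2 differed by -0.13 in DIO-R against Lean (interval -0.49 to 0.22) and by 0.24 in DIO against Lean (interval -0.12 to 0.60).

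Endothelial and macrophage markers were lower alongside Klf2. Of 8 endothelial markers 8 were lower in DIO-R than in DIO (median -0.20). Of 9 macrophage and dendritic cell entries 8 were lower (median -0.28). Adgre1 is also entered as Emr1, so it counts again in the tally, median, sum and score of that list. No gene of either list passed the test in DIO-R against DIO. In DIO against Lean 1 of the 9 macrophage and dendritic cell entries passed, higher, against 0.00352% of all genes. The summed endothelial level ranged over 4.88 to 5.43 in DIO-R, 4.67 to 5.55 in DIO and 4.67 to 5.70 in Lean. The summed macrophage level ranged over 4.83 to 5.21 in DIO-R, 4.65 to 5.50 in DIO and 4.64 to 5.32 in Lean. The part of these cells in the Klf2 values was not tested.

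The epithelial factors Klf4 and Klf5 were higher in DIO-R than in DIO, and lower in DIO than in Lean, by amounts that did not pass the test. Klf4, which drives the barrier genes of differentiating keratinocytes (chr4:55540167-55540226, mm9), had lowest, median and highest levels of 4.68, 5.11 and 5.37 in DIO-R, 4.57, 4.87 and 5.35 in DIO, and 4.73, 5.14 and 5.61 in Lean. Its difference was 0.21 in DIO-R against DIO (interval -0.07 to 0.48, adjusted p = 0.589), -0.07 in DIO-R against Lean (interval -0.35 to 0.22) and -0.27 in DIO against Lean (interval -0.56 to 0.01, adjusted p = 0.582). Klf5, which sustains division in the basal layer, had lowest, median and highest levels of 4.56, 4.84 and 5.03 in DIO-R, 4.11, 4.72 and 4.99 in DIO, and 4.48, 4.84 and 5.11 in Lean. Its difference was 0.15 in DIO-R against DIO (interval -0.09 to 0.39), 0.00 in DIO-R against Lean (interval -0.25 to 0.25) and -0.15 in DIO against Lean (interval -0.40 to 0.10). For both genes the DIO range reached lowest, with DIO 6 as the lowest sample, and the groups overlapped.

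Klf3, which represses through CtBP and acts in red cell, fat and B cell development, followed the same order. Its probe lies on chromosome 5 (chr5:65221309-65221368, mm9). Lowest, median and highest levels were 4.58, 4.64 and 5.11 in DIO-R, 4.22, 4.53 and 4.95 in DIO, and 4.38, 4.74 and 5.07 in Lean. The DIO-R samples lay above the DIO mean in 8 of 8 cases, with a difference of 0.22 (interval -0.02 to 0.46, adjusted p = 0.533). The difference was 0.06 in DIO-R against Lean (interval -0.19 to 0.30) and -0.16 in DIO against Lean (interval -0.41 to 0.08).

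Klf6, a widely expressed factor induced by injury, was the member with the least spread in DIO. Its probe lies on chromosome 13 (chr13:5869371-5869430, mm9). Lowest, median and highest levels were 4.24, 4.39 and 4.64 in DIO-R, 4.22, 4.37 and 4.50 in DIO, and 4.28, 4.41 and 4.70 in Lean. The group ranges nearly coincided. Its differences were 0.05 for DIO-R against DIO (interval -0.09 to 0.20), -0.04 for DIO-R against Lean (interval -0.19 to 0.11) and -0.09 for DIO against Lean (interval -0.24 to 0.06). The Klf6 intervals leave out a change of the size seen for Klf11.

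Samples differed along a shared axis that set the epithelial factors against Klf2, Klf9 and Klf15. After each group's mean was subtracted, the levels of Klf4 and Klf3 correlated over the 23 arrays at r = 0.85 (rho 0.81, and 0.78 without the 2 arrays farthest from the median). Klf5 correlated with Klf3 at 0.81 and with Klf4 at 0.76, and Klf10 with Klf5 at 0.71. On the other side Klf9 correlated with Klf2 at 0.75 and with Klf15 at 0.65. Klf15 with Klf2 was weaker, at 0.44 (rho 0.33, and 0.25 without the 2 farthest arrays). Between the sides the values were -0.82 for Klf15 with Klf5, -0.75 for Klf2 with Klf3 and -0.75 for Klf9 with Klf3. These points share an array, its scaling and its tissue sample, and are given as a description.

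Klf11 correlated weakly with both sides when all arrays were used, between -0.20 and 0.33 with the other 9 members and between -0.35 and 0.36 with the 16 marker scores. Without the 2 arrays farthest from the median its values reached from -0.45 with Klf4 to 0.31 with Klf2, and it correlated at -0.50 with the differentiated keratinocyte score. Its closest relative Klf10 followed the epithelial side.

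Members of each side tracked markers of tissue layers, which differed within a side. Klf4 correlated at 0.90 and Klf3 at 0.87 with the score of 10 differentiated keratinocyte markers such as Lor, Krt13 and Tgm3. Klf5 correlated at 0.82 with the basal keratinocyte score (Krt5, Krt14, Trp63 and others), at 0.80 with type II taste cells and at -0.89 with smooth muscle. Klf13 and Klf10 correlated with the type II taste score at 0.79 and 0.72. Klf2 correlated at 0.86 with macrophage and dendritic cell markers and at 0.83 with endothelium, Klf9 at 0.80 with endothelium, and Klf15 at 0.73 with smooth muscle. Klf15 also correlated at 0.69 with von Ebner gland, 0.69 with adipocyte and 0.65 with skeletal muscle markers, where Klf2 had -0.01, 0.01 and 0.05. The share of each layer in a sample and expression within a layer cannot be told apart in these data.

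**Figure D3:**
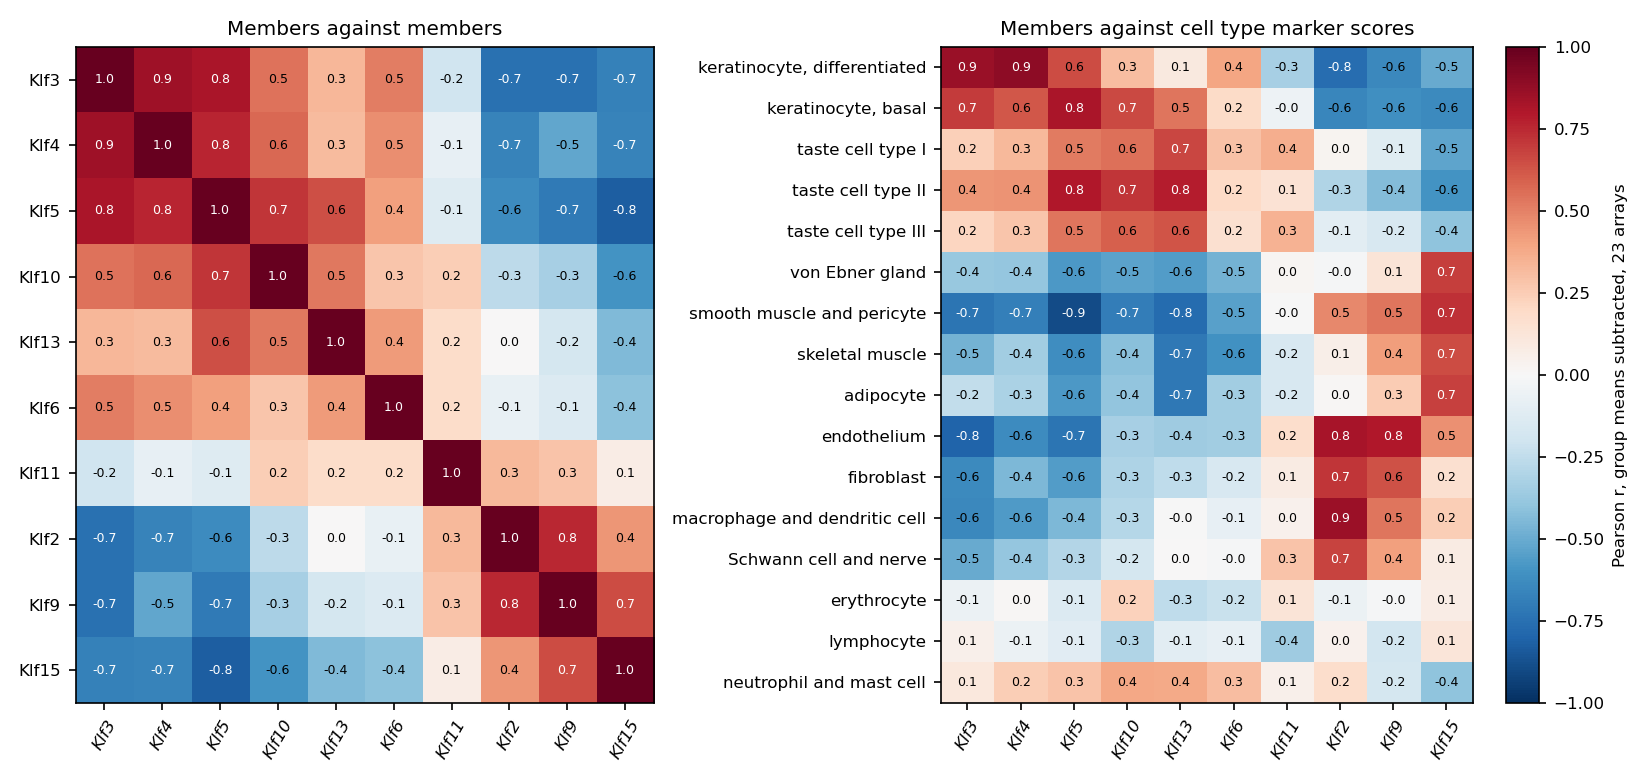
Pearson correlation over 23 arrays after subtracting group means (colour and number), between KLFs on the left and between KLFs and cell type marker scores on the right. Klf3, Klf4 and Klf5 form a positive block, and Klf2, Klf9 and Klf15 a looser one (Klf15 with Klf2 at 0.44). The blocks are negative to each other (Klf15 with Klf5 at -0.82). Klf11 stays between -0.20 and 0.33 with the other KLFs and between -0.35 and 0.36 with the marker scores.

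The promoters of Klf3 and Klf4, the pair of members with the highest correlation, are printed so that their boxes can be set side by side (250 bases before the start, GRCm38.p6). Klf3 is on the plus strand of chr5:64803271-64803520 and Klf4 on the minus strand of chr4:55532476-55532725. Capitals mark GC boxes, CACCC boxes and E-boxes.
Klf3: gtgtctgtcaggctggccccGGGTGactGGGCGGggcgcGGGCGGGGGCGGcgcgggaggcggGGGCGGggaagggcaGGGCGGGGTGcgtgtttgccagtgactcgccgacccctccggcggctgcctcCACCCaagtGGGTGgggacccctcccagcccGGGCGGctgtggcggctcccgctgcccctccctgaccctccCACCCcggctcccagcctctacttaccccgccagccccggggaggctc
Klf4: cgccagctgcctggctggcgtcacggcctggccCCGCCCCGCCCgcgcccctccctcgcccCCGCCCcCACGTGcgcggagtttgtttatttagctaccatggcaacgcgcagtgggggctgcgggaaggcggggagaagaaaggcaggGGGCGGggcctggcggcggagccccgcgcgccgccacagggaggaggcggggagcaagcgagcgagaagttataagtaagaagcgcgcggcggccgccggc
Klf3 has 6 GC boxes and 5 CACCC boxes and no E-box, whereas Klf4 has 4 GC boxes, 1 E-box and no CACCC box, so of these motifs the pair shares the GC box.

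The keratinocyte genes linked to Klf4 and Klf5 all lay on one side of 0 in each comparison with DIO, and none passed the test. Of 18 listed genes 17 were kept. In all, 17 of 17 were higher in DIO-R than in DIO (median 0.37), and 17 of 17 were lower in DIO than in Lean (median -0.40), where all genes had medians of 0.01 and -0.04. In DIO-R against Lean 9 were lower and 8 higher (median -0.08). In DIO-R against DIO the cornified envelope genes Lce3c and Flg had the largest differences, 0.66 and 0.66, with adjusted p of 0.549 and 0.603. In DIO against Lean Lce3c differed by -1.16, Lce3b by -1.13 and Flg by -0.76, and none passed. The summed differentiated keratinocyte level ranged over 9.81 to 10.79 in DIO-R, 9.14 to 10.66 in DIO and 9.76 to 11.09 in Lean. With keratinocyte and fibroblast scores as covariates the Klf4 difference in DIO-R against DIO turned to -0.055 and in DIO against Lean to 0.056.

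Endothelial genes linked to Klf2 and Klf4 showed 0 of 11 past the test in all 3 comparisons, a list that includes Klf2 and Klf4 themselves. In DIO-R against DIO 8 of 11 were lower (median -0.20). Its largest differences were those of the leukocyte adhesion genes Vcam1, -0.48 with an adjusted p of 0.479, and Sele, 0.39 with an adjusted p of 0.793. Amino acid and glucose genes linked to Klf15 had 0 of 10 past the test in each comparison, and in DIO-R against DIO 6 of 10 were higher (median 0.08). Slc2a4, the insulin-regulated glucose transporter, differed by -0.37 and Bckdk, the kinase that restrains branched-chain amino acid breakdown, by -0.29 in DIO-R against DIO. Prodh and Aldh4a1, enzymes of proline breakdown, differed by 0.25 each, with adjusted p of 0.415 and 0.448.

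Other KLFs gave no calls. Of 7 further family members 6 were kept (Klf1, the red cell factor, was not), and 0 of 6 passed in any comparison. The largest was Klf16, a Sin3a-binding repressor, at 0.40 ± 0.10 (SE) in DIO-R against DIO (adjusted p = 0.228), 0.06 in DIO-R against Lean and -0.34 in DIO against Lean (adjusted p = 0.315). Klf17 differed by -0.22 in DIO-R against DIO (adjusted p = 0.701). The related SP family had 0 of 9 past the test, with Sp6, an epithelial factor of tooth and skin, at 0.35 and Sp9 at -0.39 in DIO-R against DIO.

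Cofactors that KLFs recruit, with ligases that degrade them, had 0 of 13 past the test. Sin3a itself, the corepressor that Klf11 binds, differed by 0.19 in DIO-R against DIO (adjusted p = 0.479). The acetyltransferase gene Ep300 differed by 0.25 (adjusted p = 0.492) and the corepressor gene Ctbp2 by 0.25 (adjusted p = 0.444). In the TGF-beta early response, the pathway from which Klf10 and Klf11 took their first names, 0 of 15 passed in each comparison. Junb differed by 0.54 (adjusted p = 0.367) and Ccn2, the matrix growth factor gene, by 0.27 (adjusted p = 0.493) in DIO-R against DIO. The list was split in that comparison, with 9 of 15 higher and 6 lower, as Klf11 was (median 0.07).

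Some metabolic genes that respond to fatty acids fell in the DIO-R samples, in which Klf11 was lower. Of 20 fatty acid and PPAR target genes 17 were lower in DIO-R than in DIO (median -0.38) and 4 passed, all lower, Angptl4, Pdk4, Acot1 and Cpt1a, against 0.0387% of all genes called lower. In DIO-R against Lean 19 of 20 were lower (median -0.40) and 6 passed, the same 4 with Acot2 and Slc25a20, against 0.074% of all genes called lower. In DIO against Lean 0 of 20 passed. Pdk4, the kinase that shuts pyruvate out of the mitochondrion, fell by 2.77 against DIO on the log2 scale (adjusted p = 0.00647), and Angptl4, the lipoprotein lipase inhibitor, fell by 1.90. Acot1 and Acot2 are near-identical and can share probe signal. The adipocyte and muscle marker values given for Klf11 apply to these genes as well, and their part was not tested.

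Hormone and clock lists bear on the known inducers of Klf9 and Klf15. Of 15 glucocorticoid response genes 2 fell in DIO-R against DIO, Angptl4 and Pdk4, which also stand in the fatty acid list, against 0.0387% of all genes called lower, and the rest did not pass. The same 2 fell in DIO-R against Lean, against 0.074%, and 0 of 15 passed in DIO against Lean. In both comparisons with Lean 13 of 15 were lower, with a median of -0.29 for DIO-R and -0.28 for DIO. The classical glucocorticoid targets Fkbp5 and Tsc22d3 differed by -0.18 and -0.11 in DIO-R against DIO, by -0.76 and -0.29 in DIO-R against Lean and by -0.58 and -0.18 in DIO against Lean, and none of these passed. Of 19 clock genes 3 rose in DIO-R against DIO, Dbp, Tef and Bhlhe40, against 0.0211% of all genes called higher. In DIO-R against Lean 8 clock genes rose, against 0.0528%, and 2 fell, Arntl and Nfil3, against 0.074% called lower. The rising genes were Dbp, Tef, Bhlhe40, Ciart, Cry2, Nr1d1, Nr1d2 and Per2. Dbp, a clock output activator, rose by 1.98 ± 0.25 (SE) against DIO and by 3.49 ± 0.26 against Lean on the log2 scale, while the glucocorticoid and clock targets Klf9 and Klf15 did not pass the test. Of 19 immediate early genes 0 passed in any comparison, with Egr1 at 1.18 (adjusted p = 0.166) and Fos at 1.05 (adjusted p = 0.415) in DIO-R against DIO. In that comparison 0.0599% of all genes passed. There 16 of the 19 were higher (median 0.28), and 10 had an unadjusted limma p under 0.05, against 9.72% of all genes. In DIO against Lean 17 were lower (median -0.22), and in DIO-R against Lean 11 were higher and 8 lower (median 0.16).

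The 8 genes whose levels most resembled Klf11 over the 23 arrays included 3 of the fatty acid and PPAR list, Angptl4, Cpt1a and Acot1. They were picked by this correlation from all genes with a value on every array. A gap between groups shared with Klf11 raises it, so all values here are a description. By Pearson correlation of log2 levels the 8 were Angptl4 (0.84), Aldh9a1 (0.84), Cpt1a (0.83), Acot1 (0.81), Afmid (0.79), Acot5 (0.78), Mrtfb (0.77) and Eci2 (0.77), and the lowest were Hivep2 (-0.78), Rn28s1 (-0.75), Camkk1 (-0.74) and Wdfy3 (-0.73). Leaving out DIO-R 8 and DIO-R 4, the arrays farthest from the Klf11 median, gave 0.81 for Angptl4 and 0.82 for Cpt1a. With group means subtracted the correlation was 0.19 for Angptl4, 0.32 for Cpt1a, 0.11 for Acot1 and 0.11 for Acot5. Mrtfb, a coactivator of serum response factor, kept 0.74, and Afmid, an enzyme of tryptophan breakdown, 0.50.

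Angptl4 had lowest, median and highest levels of 1.90, 2.57 and 3.21 in DIO-R, 4.03, 4.54 and 4.80 in DIO, and 3.76, 4.42 and 5.07 in Lean. The DIO-R samples lay apart from both freely fed groups. Mrtfb had 2.68, 2.79 and 2.88 in DIO-R, 2.71, 2.92 and 3.00 in DIO, and 2.70, 2.97 and 3.10 in Lean. Its groups overlapped and it differed by -0.11 in DIO-R against DIO.

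**Figure D4:**
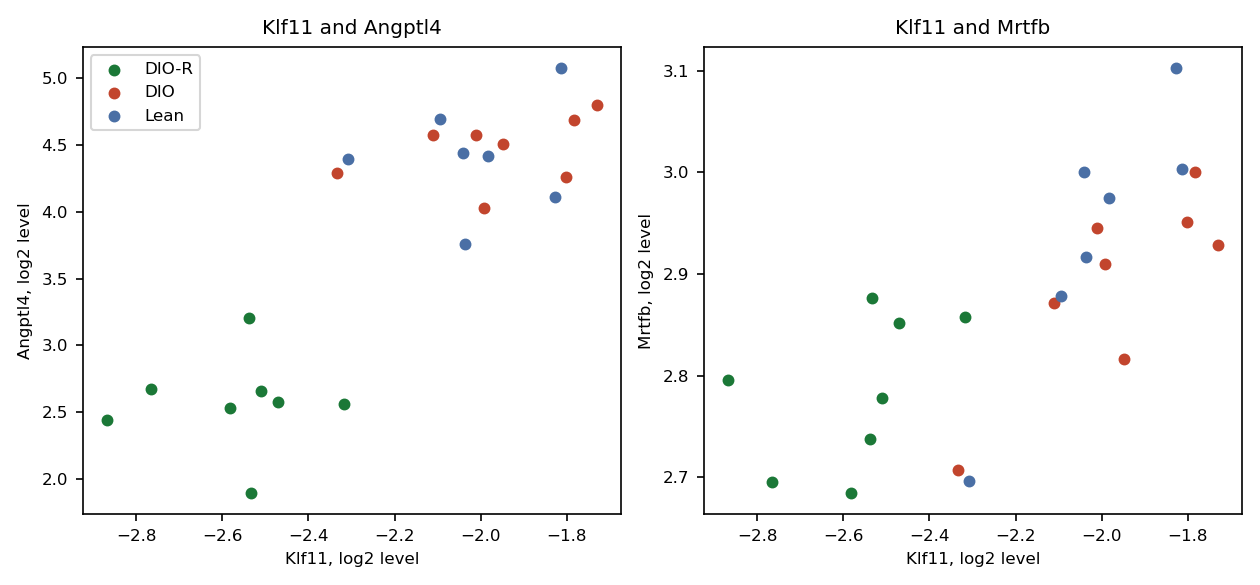
Level of Angptl4 (left) and Mrtfb (right) against the level of Klf11 in each sample (log2 intensity relative to the array's 75th percentile), coloured by group. The Angptl4 points separate into DIO-R (1.90 to 3.21) and the freely fed groups (3.76 to 5.07), whereas Mrtfb changes with Klf11 also inside groups, at r = 0.74 after subtracting group means. Both genes were picked from these data by their correlation with Klf11.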

How the data were processed

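Labelled RNA of 23 samples of papilla (DIO-R n = 8, DIO n = 8, Lean n = 7) was hybridised to 1-colour Agilent arrays of 62976 spots, per the labels' protocols. Per the file headers, the deposited spot intensity comes from version 10.10.1.1 of Agilent's Feature Extraction software with background subtracted inside each array, and probes are placed on mm9. The flags for spots well above background, a score of 0 or 1 per spot, are the software's, per the file headers. The authors also deposited a value table on a log2 scale, whose normalization is not given in the sources used here beyond the name limma, per the submitters' processing notes; it served as an alternative.

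From the intensity, log2 was taken and the array's 75th percentile over spots that are not controls was subtracted. Spots of a probe were averaged, flagged outliers were left out, and a gene was kept if the scanner software marked its leading probe as well above background on 7 or more of 23 arrays (28388 of 35019 genes). limma 3.58.1 in R 4.3.3 fitted a mean per group over all arrays, two-sided, with Benjamini-Hochberg adjustment over the genes kept and a threshold of 0.05. Python 3.11.15 with matplotlib 3.10.9 made the figures. The number of arrays limits the precision. Between 67.9% and 79.1% of spots were well above background, pairs of arrays correlated at 0.960 to 0.991, and each of 3 slides, which were also the scan batches, held every group. Samples were not treated as paired.

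The 10 genes, the 11 pathway lists and the 16 marker lists were chosen with earlier results of these data known. Genes named from a list are those that passed in any comparison and the 2 with the largest difference in DIO-R against DIO; Sin3a, Fkbp5, Tsc22d3, Lce3b, Prodh and Aldh4a1 were added after their values were seen. Alternatives were quantile and normexp normalization, other filters, mean of probes, slide and replicate blocks, covariates, array weights, the authors' table, and single samples left out. Exon boundaries of mm9 were not used here.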

Additional observations from a re-analysis of the deposited data

Results flagged for a closer look

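In each group of 7 or 8 samples the lowest and highest sample's gap to its neighbour was set against the group's range by Dixon's test, and 2 of 30 gene and group combinations passed, where chance gives about 1 in 20. Klf10 in Lean is listed because Lean 5, at a level of 2.29, lay below the other Lean samples, of which the next was at 2.40. The ratio of gap to range was 0.5682 there, barely above the critical value of 0.568. Klf15 in DIO-R is listed because DIO-R 5, at -1.67, lay below the others, of which the next was at -1.05.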

How the results depend on the processing

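The count of KLFs past the test kept to within 1.5 times its value under every alternative run except 5. It was 0 in place of 1 in DIO-R against DIO with the erythrocyte covariate and with the replicate block, and 0 in place of 1 in DIO-R against Lean with quantile normalization, with the replicate block and with the authors' value table. The cause was not tested. Same-numbered samples correlated above 0.1 in their deviations from the group means in 1 of 7 pairs of DIO-R and DIO, 1 of 6 of DIO-R and Lean and 2 of 5 of DIO and Lean. They were not read as pairs, though so few pairs cannot show whether same-numbered samples share an origin. Under the replicate block Klf11 differed by -0.64 in DIO-R against DIO and by -0.56 (adjusted p = 0.223) in DIO-R against Lean, and 4 genes in all passed in the first comparison against 17 without it. With any single sample left out, the counts stayed at 0 in DIO against Lean and 1 in both other comparisons. That of DIO-R against DIO is Klf11, which was put first on it, so nothing is read from that count here or under the alternatives above. The Klf11 difference ranged from -0.66 to -0.57 in DIO-R against DIO and from -0.61 to -0.52 in DIO-R against Lean.

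Signs turned for 18 differences under a changed setting, none of them past the test, and the cause was not tested. With keratinocyte and fibroblast covariates DIO against Lean became 0.052 for Klf10, -0.029 for Klf11, -0.14 for Klf2, 0.12 for Klf3, 0.056 for Klf4, 0.069 for Klf5 and -0.26 for Klf9. With the same covariates DIO-R against DIO became 0.15 for Klf15, -0.055 for Klf4, -0.0084 for Klf5, -0.0031 for Klf6 and 0.088 for Klf9, and DIO-R against Lean became 0.0013 for Klf4. Without DIO 1 and DIO 6, an alternative chosen after seeing the data, DIO against Lean became 0.085 for Klf10, 0.026 for Klf13 and -0.037 for Klf9, and DIO-R against DIO became -0.0079 for Klf13 and 0.10 for Klf15. With the replicate block DIO against Lean became 0.029 for Klf10 and 0.023 for Klf13, and DIO-R against Lean became 0.070 for Klf4 and 0.016 for Klf6. With array weights Klf10 became 0.00055 in DIO against Lean and Klf6 0.0015 in DIO-R against Lean. With the erythrocyte covariate Klf13 became 0.037 in DIO against Lean and -0.017 in DIO-R against DIO. With the mean of probes Klf13 became -0.0084 in DIO-R against DIO and -0.092 in DIO-R against Lean. With slide as a block, DIO-R against Lean became -0.00075 for Klf13 and -0.012 for Klf5, and with quantile normalization DIO against Lean became 0.0055 for Klf10.

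With 1 sample left out, signs turned for 8 differences. In DIO against Lean the ranges were -0.067 to 0.032 for Klf10, -0.083 to 0.0033 for Klf13 and -0.044 to 0.14 for Klf9. In DIO-R against Lean they were -0.012 to 0.038 for Klf13, -0.14 to 0.0062 for Klf4, -0.051 to 0.055 for Klf5, -0.068 to 0.0058 for Klf6 and -0.15 to 0.025 for Klf9. Over all genes, the count past the test ranged from 0 (replicate block) to 61 (array weights) in DIO against Lean, from 4 (replicate block) to 38 (array weights) in DIO-R against DIO and from 9 (replicate block) to 172 (keratinocyte and fibroblast covariates) in DIO-R against Lean, against 1, 17 and 36.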
